A study of Mus musculus with 41 samples.

Results

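The 9 neutrophil genes described here, S100a8, S100a9, Ngp, Camp, Cd177, Csf3r, Retnlg, Ly6g and Lrg1, were taken by name from a table of 21249 genes counted in 41 mouse endometriosis lesions, and all 9 were present. Ngp and Camp are set below, as granule precursor genes, against 6 mature markers (S100a8, S100a9, Cd177, Csf3r, Retnlg and Ly6g), while Lrg1 is described apart. Lesions were made by gluing a 4 mm uterine punch to the inner peritoneal wall of a recipient mouse, and whole lesions were sequenced as bulk RNA. Mice were 12 to 16 weeks old and received 3 intraperitoneal injections over 6 days from day 7, of 1 µg interleukin-33 (IL-33, a cytokine that activates group 2 innate lymphoid cells, ILC2s) or of PBS.

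The ILC2-deficient genotype, Nmur1iCre-eGFP Id2fl/fl, combines a Cre expressed from the Nmur1 gene with floxed alleles of Id2, a transcription regulator that innate lymphoid cells need. Its lesions were collected after IL-33 and 250000 transferred ILC2s (n = 4), IL-33 and added PBS (n = 4), IL-33 and 120000 transferred ILC2s (n = 2), IL-33 alone (n = 4), or PBS alone (n = 4). Lesions called added PBS here are titled IL-33 treated, PBS treated, and the titles do not say how or when this PBS was given. In lesion transfer under IL-33, Nmur1iCre-eGFP fragments were placed in deficient mice (n = 4), and deficient fragments were placed in Nmur1iCre-eGFP mice (n = 4). ILC2-competent lesions came from C57Bl/6J mice given IL-33 with 120000 ILC2s (n = 3) or IL-33 alone (n = 4), from Nmur1iCre-eGFP mice given IL-33 (Cre controls, n = 4) and from Id2fl/fl mice given IL-33 (floxed controls, n = 4). The deletion is limited to cells in which Nmur1 drives the Cre, and Id2 in the whole lesion averaged 48.1 ± 8.51 CPM in deficient lesions under IL-33 and 44.2 ± 13.1 CPM in Cre controls (SD, n = 4 each), so the bulk level does not check the deletion. Whether the replicates of a group are separate mice is not stated, and the p-values describe only how much these libraries spread.

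Neutrophils are short-lived granulocytes made in the bone marrow under the cytokine G-CSF and recruited to inflamed tissue. They fill their granules in sequence: primary granule proteins such as myeloperoxidase are made first, secondary granule proteins such as neutrophilic granule protein (Ngp) and cathelicidin (Camp) follow at the myelocyte stage, and the transcripts of both fall as cells mature. Mature cells instead carry abundant S100a8 and S100a9 RNA, which encodes the subunits of calprotectin, and surface proteins such as Ly6G, the usual mouse neutrophil marker, CD177 and the G-CSF receptor Csf3r. In peritoneal endometriosis neutrophils are among the inflammatory cells of lesions and peritoneal fluid.

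The members vary in pairs, S100a8 with S100a9 and Ngp with Camp, so the stretches before the starts of these 4 genes are shown. S100a8 (chr3:90668978-90670035, + strand) and S100a9 (chr3:90692632-90695721, - strand) are neighbours on chromosome 3. Ngp (chr9:110419747-110423012, + strand) and Camp (chr9:109847379-109849617, - strand) lie on chromosome 9, on the GRCm38 build with GENCODE M21 positions. The sequences are from RefSeq on GRCm38.p6, run 5′ to 3′ on the gene's strand and hold those of the 250 bases before the RefSeq start that also lie before the GENCODE start. Capitals mark matches, on either strand, to TTNNGNAA, a short form of the motif bound by C/EBP factors, which act in granulocyte development. The letters stand for the regions chr9:110419558-110419746 (+ strand, Ngp), chr9:109849618-109849706 (- strand, Camp), chr3:90668821-90668977 (+ strand, S100a8) and chr3:90695722-90695971 (- strand, S100a9).
Ngp: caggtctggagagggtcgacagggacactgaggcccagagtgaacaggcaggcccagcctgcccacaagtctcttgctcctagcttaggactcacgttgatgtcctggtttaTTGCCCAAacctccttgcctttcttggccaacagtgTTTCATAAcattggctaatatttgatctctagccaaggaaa
Camp: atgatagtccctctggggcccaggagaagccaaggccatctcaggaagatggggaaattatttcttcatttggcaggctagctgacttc
S100a8: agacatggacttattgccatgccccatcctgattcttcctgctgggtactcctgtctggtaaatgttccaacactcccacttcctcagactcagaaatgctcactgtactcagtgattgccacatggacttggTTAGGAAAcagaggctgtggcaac
S100a9: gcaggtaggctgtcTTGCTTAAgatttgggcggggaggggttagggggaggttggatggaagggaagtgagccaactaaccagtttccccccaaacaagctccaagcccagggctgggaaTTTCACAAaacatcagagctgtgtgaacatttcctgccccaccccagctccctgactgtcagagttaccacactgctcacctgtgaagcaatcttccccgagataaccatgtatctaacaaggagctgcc

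The Ngp stretch held 2 matches, that of S100a9 2, that of S100a8 1 and that of Camp, the shortest at 89 bases, 0. Over the full 250 bases before the RefSeq start, 6 of the 9 members held a match (Cd177, Ly6g, Ngp, Retnlg, S100a8 and S100a9), and 36.8% of 32851 mouse promoters of that length did. GAGGAA, the core of the PU.1 motif, searched on both strands, was in 4 of 9 members and 23.3% of promoters, and TATAAA was in 3 of 9 and 12.4%. A match is a string of letters and not a measured binding site, and no match says only that these letters are not in the window.

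Neutrophil transcripts were a small part of every lesion. Per kilobase of exon, the median level over 41 libraries was 27.0 CPM per kb for S100a9, 22.1 for S100a8, 21.5 for Lrg1 and 16.0 for Csf3r, against 4.00 for Retnlg, a resistin-like protein of mouse neutrophils, 2.91 for Ngp, 0.736 for Camp, 0.583 for Cd177 and 0.385 for Ly6g. Ly6g had under 10 counts in 11 libraries and Camp in 10, with 0 counts in 1, so these genes are the least precisely measured. In bulk tissue, fewer neutrophils and less RNA per neutrophil cannot be told apart.

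Libraries held 28884926 to 70526624 counts (median 42906356). In 4 libraries (deficient under IL-33 replicate 2, C57Bl/6J with 120000 ILC2s replicate 3, C57Bl/6J under IL-33 replicate 4 and Cre control replicate 3) 12 liver genes such as Alb took 2.70 to 9.92% of counts, against at most 0.0793% in the other 37. Each comparison was therefore also run on those 37 libraries. There the point difference of Lrg1, which liver makes, turned sign in 6 of 12 comparisons, and 17 of the 96 point differences of the 8 other members did, none of them called in either set.

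Levels differed widely between single lesions. Ngp spanned 0.0839 to 79.5 CPM, a 948-fold range, and Camp spanned 0 to 15.4 CPM, at least 184-fold against a floor of 3 counts in the library at 0. S100a8 spanned 2.38 to 81.9 CPM (34.4-fold), S100a9 2.92 to 72.2 CPM (24.8-fold), Cd177 0.432 to 19.1 CPM (44.1-fold), Retnlg 0.483 to 9.55 CPM (19.8-fold) and Ly6g 0.0890 to 1.46 CPM (16.4-fold). Csf3r, also expressed by other myeloid cells, stayed within 19.1 to 117 CPM (6.11-fold).

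The biological coefficient of variation, the spread between replicates in edgeR's model, was 1.12 for Camp, 0.989 for Ngp, 0.930 for Lrg1, 0.685 for Cd177 and 0.564 to 0.614 for S100a8, S100a9, Retnlg and Ly6g. It was 0.302 for Csf3r, and the median of all genes was 0.248. Group membership took 19.8 to 50.3% of the variance of a member's log2 CPM, where the median gene had 34.3%.

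**Figure D1:**
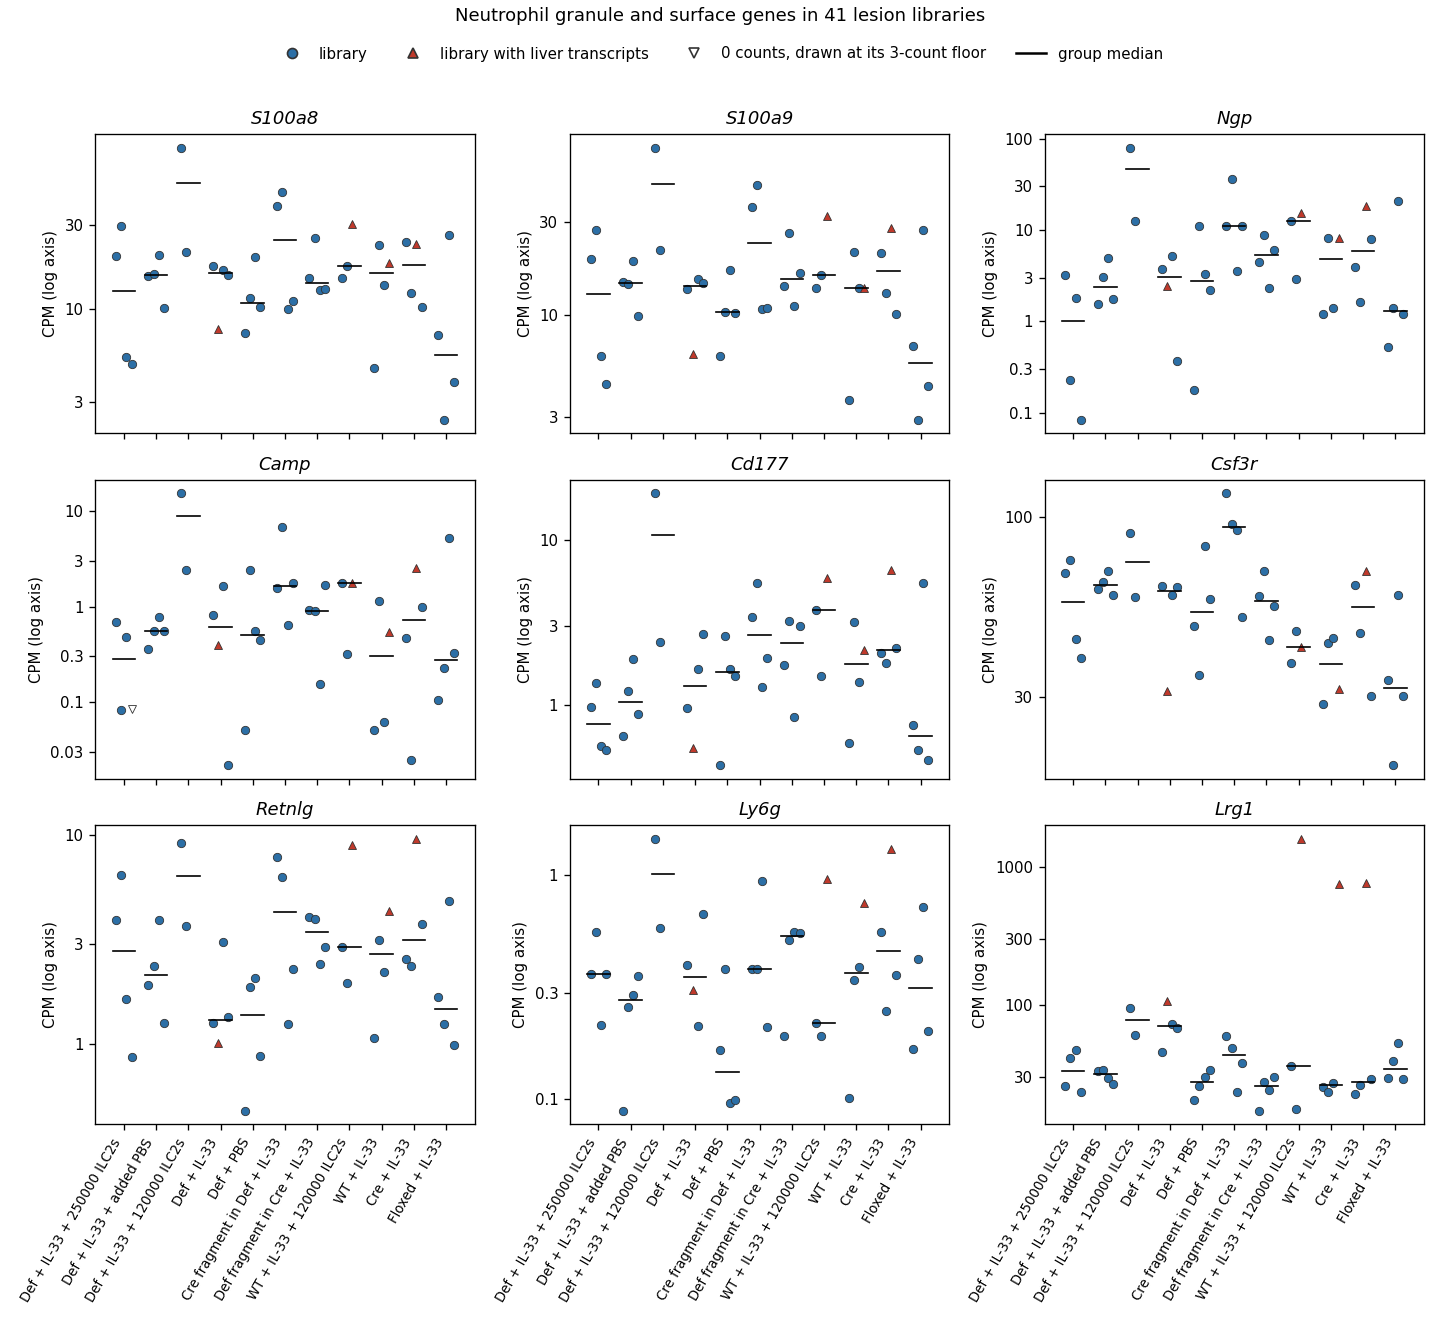
Level of each of the 9 members (CPM, log axis) in 41 libraries, with groups on the x axis and a line at each group's median. Red triangles are the 4 libraries with liver transcripts, where Lrg1 reached up to 1609 CPM, and the highest point in 6 panels is the first library of deficient lesions with 120000 ILC2s (Ngp 79.5 CPM).

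Ordered by mean level, neighbouring groups overlapped in all 10 of 10 pairs for every member. By group medians, S100a8 was highest in deficient lesions with 120000 ILC2s (51.5 CPM, n = 2) and lowest in floxed controls (5.52 CPM, n = 4). Ngp was also highest there (46.1 CPM) and was lowest in deficient lesions with 250000 ILC2s (1.01 CPM). Csf3r had its highest median in Cre fragments grown in deficient recipients (93.1 CPM) and its lowest in floxed controls (32.0 CPM).

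The precursor gene Ngp was uneven within groups. Ngp averaged 1.34 ± 1.49 CPM in deficient lesions with 250000 ILC2s, 46.1 ± 47.3 with 120000 ILC2s, 2.82 ± 1.56 with added PBS, 2.95 ± 2.07 with IL-33 alone and 4.21 ± 4.83 with PBS alone (SD, n as given for each group). It averaged 15.4 ± 14.1 CPM in Cre fragments in deficient recipients and 5.40 ± 2.72 CPM in deficient fragments in Cre recipients. In competent lesions it averaged 10.3 ± 6.50 CPM in C57Bl/6J mice with 120000 ILC2s, 4.76 ± 4.00 in C57Bl/6J mice, 7.92 ± 7.31 in Cre controls and 5.94 ± 9.79 in floxed controls. The SD exceeded the mean in 4 of the 11 groups, those with 250000 and 120000 ILC2s, with PBS alone and the floxed controls.

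The calprotectin gene S100a8 was less uneven than Ngp. S100a8 averaged 15.0 ± 12.0 CPM in deficient lesions with 250000 ILC2s, 51.5 ± 43.0 with 120000 ILC2s, 15.4 ± 4.14 with added PBS, 14.4 ± 4.53 with IL-33 alone and 12.3 ± 5.35 with PBS alone (SD, n as given for each group). It averaged 26.4 ± 18.5 CPM in Cre fragments in deficient recipients and 16.6 ± 5.83 CPM in deficient fragments in Cre recipients. In competent lesions it averaged 21.0 ± 8.24 CPM in C57Bl/6J mice with 120000 ILC2s, 14.9 ± 7.88 in C57Bl/6J mice, 17.5 ± 7.15 in Cre controls and 9.93 ± 11.1 in floxed controls. The SD exceeded the mean in floxed controls, where replicate 3 was at 26.3 CPM and the other 3 at 2.38 to 7.14 CPM.

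The surface gene Cd177 was low in most groups. Cd177 averaged 0.859 ± 0.394 CPM in deficient lesions with 250000 ILC2s, 10.7 ± 11.8 with 120000 ILC2s, 1.16 ± 0.546 with added PBS, 1.46 ± 0.938 with IL-33 alone and 1.54 ± 0.887 with PBS alone (SD, n as given for each group). It averaged 3.02 ± 1.87 CPM in Cre fragments in deficient recipients and 2.21 ± 1.12 CPM in deficient fragments in Cre recipients. In competent lesions it averaged 3.69 ± 2.16 CPM in C57Bl/6J mice with 120000 ILC2s, 1.82 ± 1.10 in C57Bl/6J mice, 3.15 ± 2.26 in Cre controls and 1.81 ± 2.45 in floxed controls. The highest mean rests on the first lesion with 120000 ILC2s, at 19.1 CPM.

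The G-CSF receptor gene Csf3r had the smallest relative spread. Csf3r averaged 56.8 ± 17.7 CPM in deficient lesions with 250000 ILC2s, 74.2 ± 22.0 with 120000 ILC2s, 63.9 ± 4.46 with added PBS, 54.1 ± 15.2 with IL-33 alone and 55.8 ± 19.96 with PBS alone (SD, n as given for each group). It averaged 88.6 ± 27.3 CPM in Cre fragments in deficient recipients and 56.99 ± 10.6 CPM in deficient fragments in Cre recipients. In competent lesions it averaged 42.1 ± 4.39 CPM in C57Bl/6J mice with 120000 ILC2s, 37.1 ± 7.94 in C57Bl/6J mice, 52.4 ± 17.8 in Cre controls and 35.6 ± 16.9 in floxed controls. The SD stayed below the mean in every group, and the highest mean, in Cre fragments in deficient recipients, overlaps the next group in order.

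The low-count marker Ly6g was below 2 CPM in every library. Ly6g averaged 0.375 ± 0.141 CPM in deficient lesions with 250000 ILC2s, 1.02 ± 0.620 with 120000 ILC2s, 0.249 ± 0.114 with added PBS, 0.398 ± 0.198 with IL-33 alone and 0.186 ± 0.136 with PBS alone (SD, n as given for each group). It averaged 0.480 ± 0.320 CPM in Cre fragments in deficient recipients and 0.456 ± 0.178 CPM in deficient fragments in Cre recipients. In competent lesions it averaged 0.460 ± 0.439 CPM in C57Bl/6J mice with 120000 ILC2s, 0.396 ± 0.267 in C57Bl/6J mice, 0.621 ± 0.482 in Cre controls and 0.380 ± 0.257 in floxed controls. The SD was below the mean in every group, on few counts.

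The same few lesions were high for most members. Of the 8 members other than Lrg1, all 8 ranked among the top 5 libraries in the first lesion of deficient mice with 120000 ILC2s. Ngp was 79.5 CPM there, Camp 15.4, Cd177 19.1, S100a8 81.9 and S100a9 72.2. In 3 further libraries 6 of 8 did: replicate 2 of Cre fragments in deficient recipients, Cre control replicate 3 and C57Bl/6J with 120000 ILC2s replicate 3, where the last 2 are among the liver-containing libraries.

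The calprotectin genes varied together. Over 41 libraries log2 CPM of S100a8 and S100a9 correlated with Pearson's r = 0.986 and Spearman's rho = 0.972 (each permutation p = 1e-05, the smallest that 100000 permutations give, and 2.77e-05 after Benjamini-Hochberg adjustment over the 36 member pairs). After centring within groups r was 0.987, in the 37 libraries without liver transcripts 0.989, and without the 2 libraries farthest from the median 0.982. As a description made after the values were seen, in the 21 libraries with S100a8 between 10.2 and 21.0 CPM, S100a9 was 10.1 to 21.6 CPM.

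The granule precursor genes also varied together, with r = 0.929 and rho = 0.946 between Ngp and Camp (each permutation p = 1e-05, adjusted 2.77e-05), 0.956 within groups and 0.907 without the 2 farthest libraries. Ngp was tied less closely to S100a8 (r = 0.629, rho = 0.636, adjusted permutation p of r = 4.8e-05, 0.582 without the 2 farthest). In the same 21 libraries of similar S100a8 level, Ngp ran from 0.369 to 12.6 CPM (34.2-fold) and Camp from 0.0217 to 2.44 CPM. Camp's lower end is 1 library with few counts, and both lowest values are deficient lesion replicate 4 under IL-33.

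Csf3r had a higher r with calprotectin (0.734 with S100a8, rho = 0.657, adjusted permutation p of r = 2.77e-05, 0.654 without the 2 farthest) than with the precursors. Its r with Ngp was 0.297 (rho = 0.276, adjusted permutation p of r = 0.063), and with Camp 0.376 (rho = 0.322, adjusted permutation p of r = 0.0192, 0.299 without the 2 farthest). Cd177, a surface protein of neutrophils, and Retnlg had r = 0.845 and 0.835 with S100a9 (rho = 0.774 and 0.846, each adjusted permutation p of r = 2.77e-05). With Ngp they had r = 0.796 and 0.693 (rho = 0.841 and 0.713, each adjusted permutation p of r = 2.77e-05). Cd177 thus lay closer to S100a9 by r but closer to the precursor Ngp by rho, and Retnlg lay closer to S100a9 by both. In all, 32 of the 36 pairs passed at 0.05 after adjustment, and 27 did after centring within groups. Libraries share their depth and composition across genes, and the differences between these correlations were not tested.

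**Figure D2:**
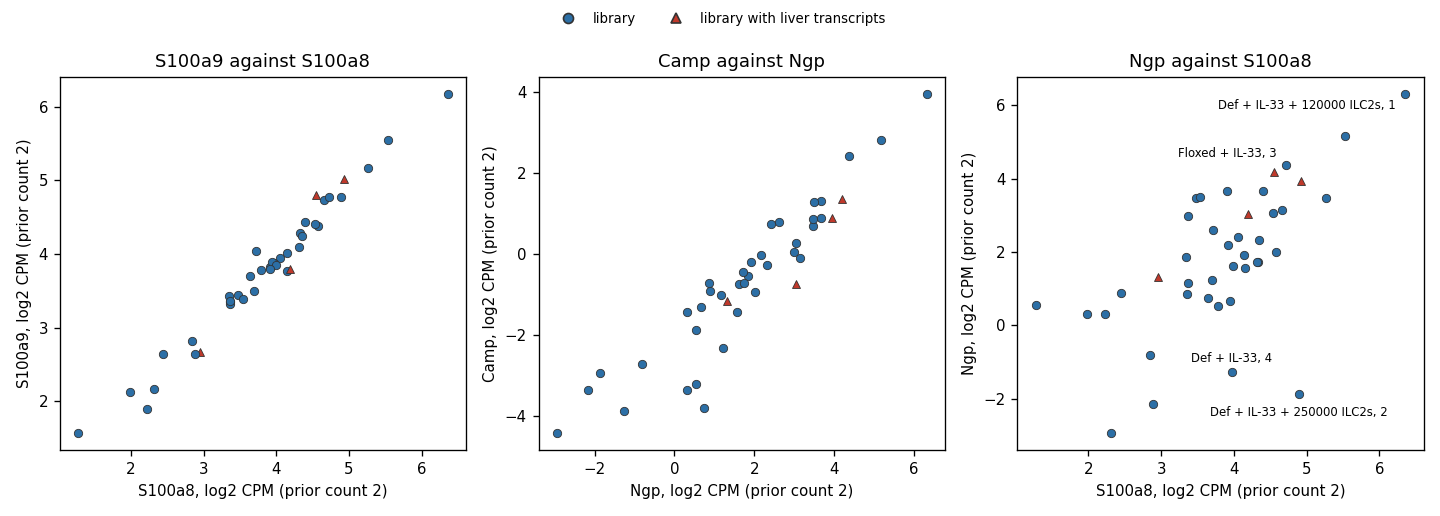
Log2 CPM of S100a9 against S100a8, of Camp against Ngp and of Ngp against S100a8, with 1 point per library and red triangles for libraries with liver transcripts. The first 2 panels form tight lines (r = 0.986 and 0.929), while in the third (r = 0.629) the second lesion with 250000 ILC2s has 29.6 CPM of S100a8 and 0.228 CPM of Ngp.

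The contrast of precursor and mature genes was taken per library as the mean log2 CPM of Ngp and Camp minus that of the 6 mature markers, relative to the median library. It ran from -3.89 to 2.21. Across libraries the precursor mean spread more (SD 1.88, range 8.82 on the log2 scale) than the mature mean (SD 0.794, range 3.57). The 2 spreads are not like measures. The precursor mean rests on Ngp and Camp alone, and Camp had under 10 counts in 10 libraries, while the mature mean averages 6 genes. Cd177 was counted as mature, and no alternative left it out. By rho it lay closer to Ngp (0.841) than to S100a9 (0.774), and by r the reverse (0.796 and 0.845).

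The 2 extremes lie in ILC2 transfer groups of different dose, but lesions without transferred ILC2s came close to both. Deficient lesion replicate 4 under IL-33 alone was at -3.54, and replicate 2 of Cre fragments in deficient recipients was at 1.97. The library at -3.89 was the second deficient lesion with 250000 ILC2s. It had 29.6 CPM of S100a8, 75.1 of Csf3r and 6.42 of Retnlg, but 0.228 of Ngp and 0.0828 of Camp. The library at 2.21 was the first deficient lesion with 120000 ILC2s, and the second lesion of that group was also above 0.

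Deficient lesions with 250000 ILC2s averaged -1.87 ± 2.05 and those with added PBS -0.32 ± 0.23 (SD, n = 4 each). Deficient lesions with 120000 ILC2s averaged 1.70 ± 0.71 (n = 2) and those under IL-33 alone -0.57 ± 2.00 (n = 4). Cre fragments in deficient recipients averaged 0.91 ± 1.03 and Cre controls -0.32 ± 1.41 (n = 4 each). In every group but that with added PBS the SD was at least 0.71, and the group means are given as a description.

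**Figure D3:**
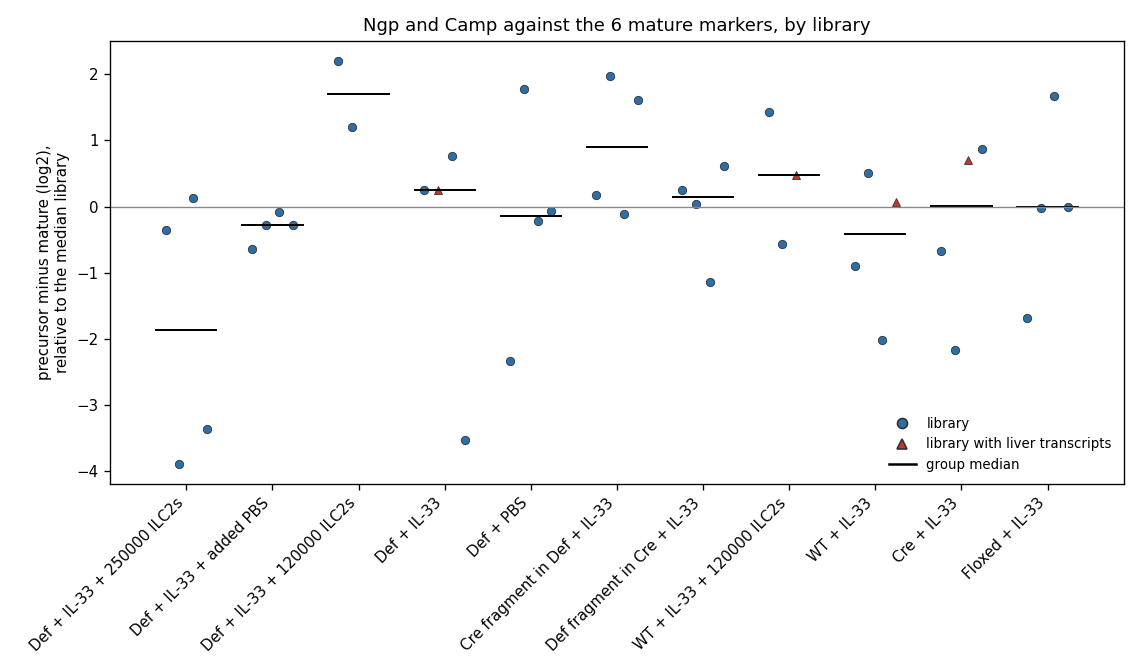
Mean log2 CPM of Ngp and Camp minus that of the 6 mature markers, relative to the median library, for 41 libraries in 11 groups, with a line at each group's median. Values run from -3.89 (second deficient lesion with 250000 ILC2s) to 2.21 (first deficient lesion with 120000 ILC2s), and the 4 lesions with added PBS lie closest together (-0.63 to -0.09).

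The first comparison set ILC2-deficient lesions against the 3 competent genotypes, all under IL-33. None of the 9 members passed an adjusted p of 0.05 (edgeR quasi-likelihood test with Benjamini-Hochberg adjustment over 21249 genes), where 11% of all genes did, and none reached an unadjusted p below 0.05 with edgeR, where 25.7% of genes did, or with DESeq2, which gave Lrg1 no p in any comparison on 41 libraries. The median log2 fold change of the 9 was -0.29, against -0.01 for all genes, and it turned to 0.27 without the 4 liver-containing libraries. S100a8 was 17.6, 7.69, 16.6 and 15.6 CPM in deficient lesions, against a lowest of 2.38, a median of 13.1 and a highest of 26.3 CPM in the 12 competent ones.

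The deficient S100a8 values lie inside the competent range, with a log2 fold change of 0.07 ± 0.51 (SE, edgeR adjusted p = 0.957). Ngp was 3.72, 2.45, 5.26 and 0.369 CPM in deficient lesions, against 0.522, 2.80 and 20.6 CPM as the lowest, median and highest of the competent lesions, with a log2 fold change of -1.04 ± 0.95 (SE, adjusted p = 0.536, 95% interval -2.97 to 0.89). The fourth deficient lesion lies below all competent ones for Ngp and the other 3 lie among them. Retnlg, at 1.26, 1.01, 3.07 and 1.35 CPM against a competent median of 2.47 CPM, had -0.84 ± 0.56 (adjusted p = 0.366). The 6 others apart from Lrg1 lay between -0.57 (Cd177) and 0.40 (Csf3r). Without the liver-containing libraries Ngp had -0.56 ± 1.07 and Retnlg -0.34 ± 0.57, and S100a9, Camp and Ly6g turned to 0.22, 0.27 and 0.32.

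Against Cre controls alone, 1 member, Retnlg, had an unadjusted p below 0.05 with edgeR and with DESeq2, where 19.7% of all genes did in edgeR, and none was called by either tool. It was 1.26, 1.01, 3.07 and 1.35 CPM in deficient lesions and 2.56, 2.37, 9.55 and 3.74 CPM in Cre controls, with 1 deficient value inside the range of the controls. The log2 fold change was -1.45 ± 0.66 with an adjusted p of 0.215, and 3.83% of genes passed the adjusted threshold. Ngp (-1.43 ± 1.11, adjusted p = 0.519) and Lrg1 (-1.54 ± 1.05, adjusted p = 0.453) were the other members with the largest point differences. These values rest in part on the liver-containing libraries, of which Cre replicate 3 has the highest Retnlg. Without them Retnlg had -0.62 ± 0.69 (unadjusted p = 0.382), Ngp -0.53 ± 1.28 and Cd177 -0.20 ± 0.82, and Camp, S100a8 and Ly6g turned from negative point differences to 0.71, 0.10 and 0.15.

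Csf3r was the member with the narrowest interval. It was 62.8, 31.4, 59.3 and 62.7 CPM in deficient lesions, against 19.1, 38.4 and 69.7 CPM as the lowest, median and highest of the 12 competent ones. The log2 fold change was 0.40 ± 0.24 (adjusted p = 0.312), and the low deficient value is the lesion with liver transcripts. Without the 4 liver-containing libraries it was 0.62 ± 0.26 with an unadjusted p of 0.0263 and an adjusted p of 0.144, so it did not pass either way.

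**Figure D4:**
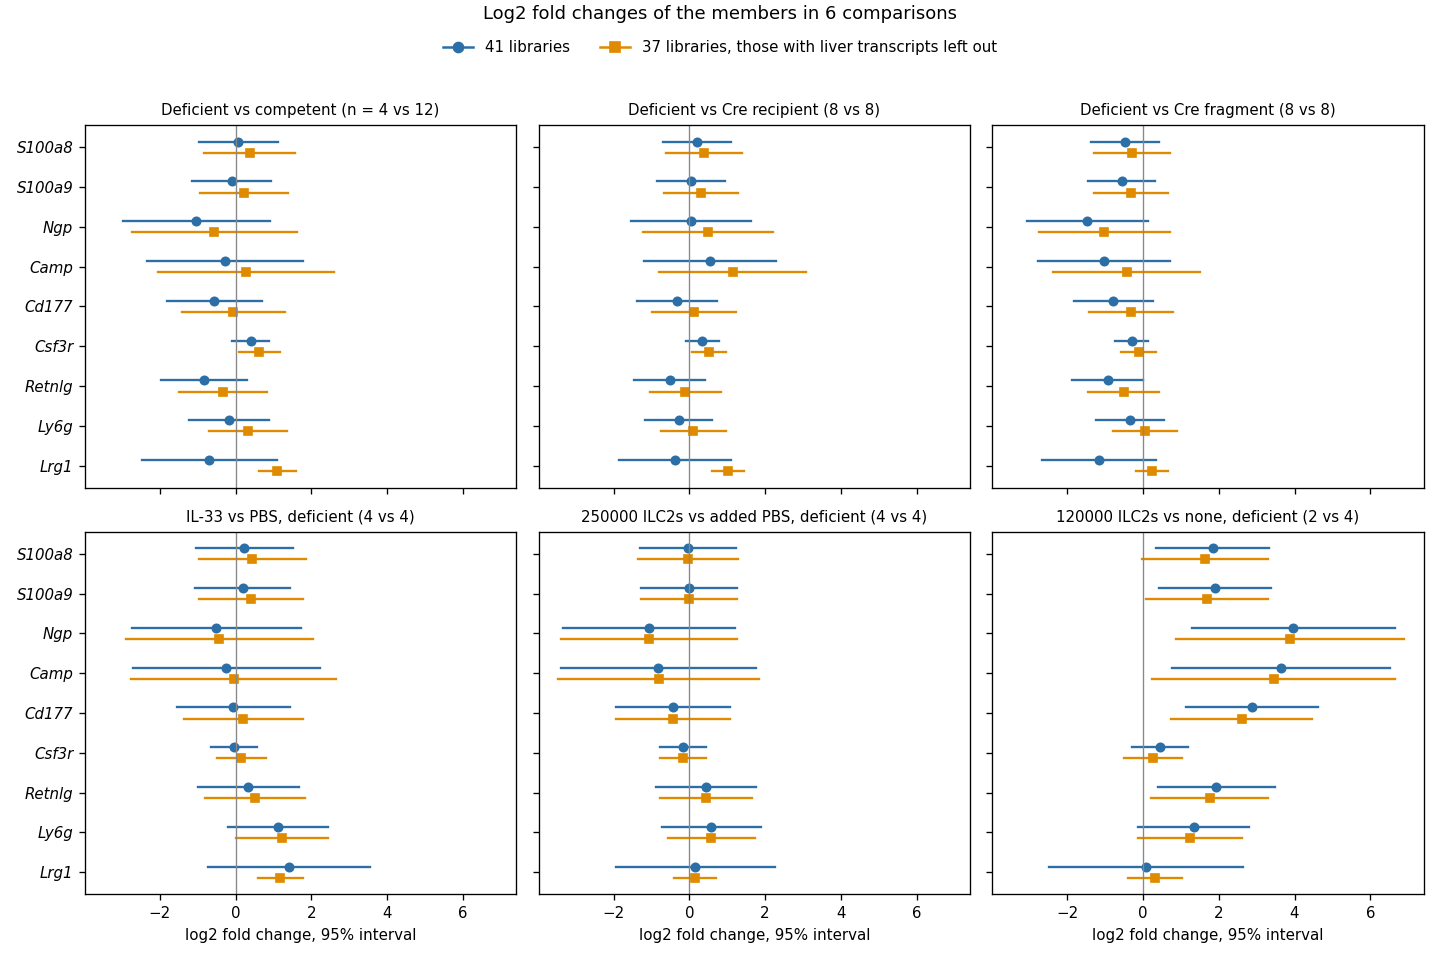
Log2 fold changes of the 9 members with 95% intervals in 6 comparisons, from 41 libraries (blue circles) and from the 37 without liver transcripts (orange squares). Lrg1 changes side in the deficient against competent panel (-0.69 and 1.10), and in the panel for 120000 ILC2s 6 blue intervals lie above 0.

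Lrg1, a secreted glycoprotein that neutrophils store and that liver and inflamed endothelium also make, was highest in libraries with liver transcripts. In Cre controls it was 22.7, 26.2, 774 and 29.0 CPM, in C57Bl/6J lesions 25.3, 23.5, 27.1 and 758 CPM, and in C57Bl/6J lesions with 120000 ILC2s 36.4, 17.8 and 1609 CPM. The highest value in each group is its liver-containing library, and the next highest values were 29.0, 27.1 and 36.4 CPM. The 5 genes most like Lrg1 over 41 libraries were Msra, Aldh2, Hp, Dbi and Dhrs1 (r = 0.94 each). Hp, haptoglobin, is a product of liver and is also in the list of neutrophil secondary and tertiary granule genes used below.

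**Figure D5:**
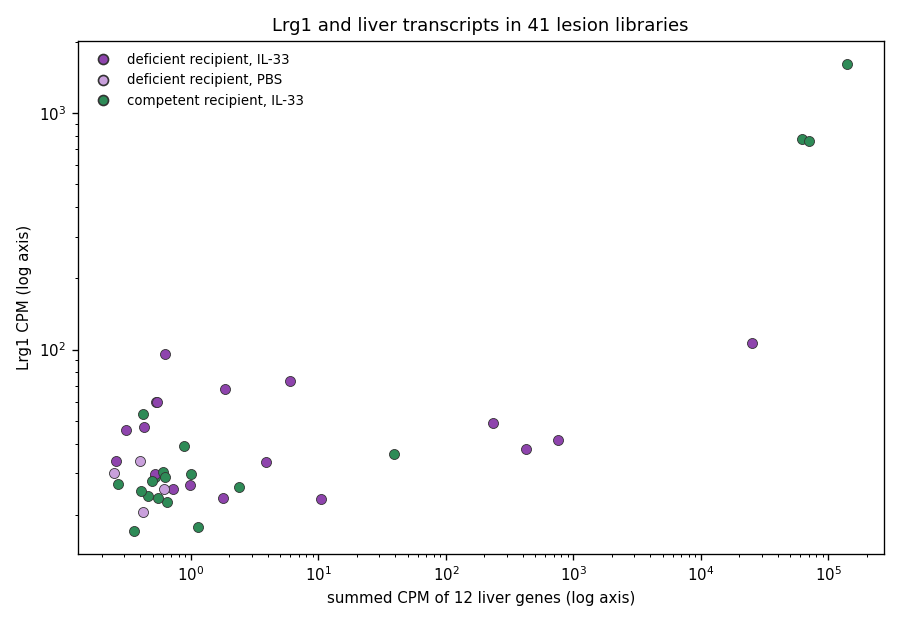
Lrg1 level against the summed level of 12 liver genes in 41 libraries (CPM, both axes log), coloured by recipient and treatment. The 4 libraries at the right hold 25106 to 140260 CPM of liver genes, and among the 37 others Lrg1 runs from 17.2 to 95.3 CPM with the highest values in deficient recipients given IL-33.

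With those 4 libraries left out, Lrg1 was the only member called, and it was higher in deficient lesions with IL-33 alone. It was 45.5, 73.4 and 68.4 CPM in the 3 remaining deficient lesions under IL-33, and the 10 competent ones had a lowest of 22.7, a median of 28.0 and a highest of 53.5 CPM. The lowest deficient value thus lies inside the competent range. The log2 fold change was 1.10 ± 0.24 (2.14-fold, edgeR adjusted p = 0.00553), where 8.64% of 21106 genes tested were called. Against the 3 remaining Cre controls (22.7, 26.2 and 29.0 CPM), where the groups did not overlap, it was 1.26 ± 0.32 (2.40-fold, adjusted p = 0.0364, 1.57% of genes called). The first call was lost without deficient replicate 4 (1.03, adjusted p = 0.0948), and the second without any 1 of Cre replicates 1, 2 and 4 or of deficient replicates 3 and 4 (1.13 to 1.35, adjusted p 0.0769 to 0.162) or with the replicate number as a block (1.21, adjusted p = 0.0664). Over all 41 libraries the values were -0.69 ± 0.88 (adjusted p = 0.677) and -1.54 ± 1.05 (adjusted p = 0.453).

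The higher level was called for the recipient and not for the fragment. Without liver-containing libraries, Lrg1 was 45.5, 73.4 and 68.4 CPM in deficient fragments and 59.8, 48.7, 23.4 and 38.0 CPM in Cre fragments when the recipient was deficient. In Cre recipients it was 17.2, 27.9, 24.1 and 30.3 CPM in deficient fragments and 22.7, 26.2 and 29.0 CPM in Cre fragments. The difference for deficient against Cre recipients was 1.02 ± 0.21 on the log2 scale (2.03-fold, adjusted p = 0.00222, 10.9% of genes called), with 1 deficient recipient, at 23.4 CPM, inside the range of the others. The difference for deficient against Cre fragments was 0.25 ± 0.21 (adjusted p = 1.00), with an interval from -0.18 to 0.67.

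The level varied among the other groups of deficient lesions. Lesions with IL-33 and added PBS had 33.4, 33.7, 29.8 and 26.7 CPM of Lrg1, all below the 3 remaining lesions with IL-33 alone, and the difference was -1.01 ± 0.29 (edgeR adjusted p = 0.0798, 0.772% of genes called). Their values lie inside the range of the 10 competent lesions without liver transcripts, 22.7 to 53.5 CPM. Deficient lesions given PBS alone had 20.6, 25.8, 30.0 and 33.9 CPM, and IL-33 against PBS gave 1.18 ± 0.29 (unadjusted p = 0.000337, adjusted p = 0.340, 0% of genes called). DESeq2 called both differences on these 37 libraries (adjusted p = 0.0183 for added PBS and 0.0359 for IL-33 against PBS). Lesions with 250000 ILC2s had 25.8, 41.4, 47.2 and 23.5 CPM and those with 120000 ILC2s 95.3 and 60.3 CPM, so that both lesions of the lower dose and 1 of the higher lie within or above the values under IL-33 alone.

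Markers of endometrial epithelium were uneven in the same groups. The summed level of 7 such genes was 177 to 1401 CPM in deficient lesions under IL-33, 411 and 877 CPM with 120000 ILC2s, 59.4 to 331 CPM with 250000 ILC2s, 15.9 to 827 CPM in Cre fragments in deficient recipients, 16.1 to 82.5 CPM with added PBS and 77.1 to 208 CPM with PBS alone. It was 49.0 to 218 CPM in deficient fragments in Cre recipients, 44.2 to 213 CPM in C57Bl/6J lesions, 174 to 487 CPM in Cre controls and 24.9 to 755 CPM in floxed controls, and at most 1 of the 7 genes was at 0 in any library. Of the 7, Krt19 was higher in deficient than in competent lesions (2.05 ± 0.68, edgeR adjusted p = 0.046) and none was called for the recipient, for added PBS or for IL-33 against PBS. These sums and calls are for all 41 libraries, liver-containing ones included, whereas the Lrg1 difference was called in the 37 others. The genes most like Lrg1 in the 37 libraries were Dbi (r = 0.76), B3gnt3, Pdzd2, Adamtsl2 and 1110008P14Rik. The liver list reached 421.5 CPM in 1 of the remaining Cre fragments in deficient recipients. The part of epithelium or of traces of liver in the Lrg1 difference was not tested.

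Transfer of 120000 ILC2s into deficient mice gave the largest point differences, and 1 lesion carried them. No member passed the adjusted threshold in edgeR or DESeq2, and 0% of the 21249 genes did in edgeR. At an unadjusted p below 0.05, 6 of 9 members were higher (S100a8, S100a9, Ngp, Camp, Cd177 and Retnlg) with edgeR and with DESeq2, where 1.18% of genes were higher in edgeR. Levels did not overlap between groups for 5 members, where 3.44% of genes were higher without overlap.

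Ngp was 79.5 and 12.6 CPM with 120000 ILC2s, against 3.72, 2.45, 5.26 and 0.369 CPM without. Cd177 was 19.1 and 2.40 CPM, against 0.952, 0.551, 1.65 and 2.69 CPM. S100a8 was 81.9 and 21.0 CPM, against 17.6, 7.69, 16.6 and 15.6 CPM. Both treated lesions exceeded all 4 untreated ones for Ngp and S100a8, and the second did not for Cd177. The log2 fold changes were 3.96 ± 1.31 for Ngp, 3.64 ± 1.42 for Camp and 2.87 ± 0.85 for Cd177 (each adjusted p = 1).

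Without the first of the 2 lesions, Ngp was 2.09 ± 1.52, Cd177 0.70 ± 1.05 and S100a8 0.54 ± 0.93, and no member had an unadjusted p below 0.05, with the lone lesion assumed to vary like other groups. The share of all genes higher at that threshold was then 0.428%. Without the second, 7 members were higher, as were 2.79% of genes, and without the liver-containing libraries 5 members were, as were 0.952% of genes. Primary granule genes were also high in the first lesion: myeloperoxidase (Mpo) was 19.97 CPM, proteinase 3 (Prtn3) 9.59, neutrophil elastase (Elane) 4.83 and cathepsin G (Ctsg) 3.54 CPM, against 0.640, 1.28, 0.140 and 0.380 CPM in the second. Red blood cell genes (globins and Alas2) summed to 16.8 and 18.8 CPM in the 2 lesions, against 9.51 to 61.0 CPM in lesions with IL-33 alone.

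The same dose given to C57Bl/6J mice gave no call. All 9 point differences were positive, with a median of 0.78 (0.23, with 8 positive, without the liver-containing libraries), but none passed (0% of genes did in edgeR) or had an unadjusted p below 0.05 with either tool (3.96% of genes did with edgeR). Ngp was 12.6, 2.93 and 15.3 CPM with ILC2s, against 1.195, 8.24, 1.396 and 8.19 CPM without (1.11 ± 1.16, adjusted p = 0.999). Camp, at 1.78, 0.321 and 1.79 CPM against 0.0509, 1.16, 0.0616 and 0.548 CPM, had the largest difference, 1.52 ± 1.31 (adjusted p = 0.999). Lrg1, at 36.4, 17.8 and 1609 CPM against 25.3, 23.5, 27.1 and 758 CPM, had 1.41 ± 1.11, and 0.10 ± 0.35 without liver-containing libraries.

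Transfer of 250000 ILC2s, set against lesions with added PBS, gave no called member. None was called by either tool and none had an unadjusted p below 0.05 with edgeR or DESeq2 (8.7% of genes did with edgeR, and 0% passed adjustment). Ngp was 3.25, 0.228, 1.80 and 0.0839 CPM with ILC2s, against 1.54, 3.03, 4.94 and 1.77 CPM with added PBS (-1.07 ± 1.11, adjusted p = 0.767). Camp was 0.687, 0.0828, 0.484 and 0 CPM, against 0.356, 0.549, 0.775 and 0.556 CPM (-0.82 ± 1.26, adjusted p = 0.857). S100a8 was 20.1, 29.6, 5.40 and 4.92 CPM, against 15.3, 15.9, 20.3 and 10.2 CPM (-0.04 ± 0.63, adjusted p = 0.989). Ly6g had 0.58 ± 0.64 (adjusted p = 0.784). For S100a8, 1 lesion with ILC2s lies above all those with added PBS and 2 lie below them, and for Ngp 2 lie below. The 2 doses were given in separate groups with separate controls and were not compared.

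IL-33 against PBS in deficient mice gave no call. No member passed with either tool (0.00941% of genes did with edgeR) or had an unadjusted p below 0.05 (6.76% of genes did with edgeR). Ly6g was 0.399, 0.306, 0.214 and 0.673 CPM with IL-33, against 0.165, 0.384, 0.0962 and 0.0994 CPM with PBS (1.12 ± 0.64, adjusted p = 0.827). S100a8 was 17.6, 7.69, 16.6 and 15.6 CPM, against 7.35, 11.6, 19.8 and 10.3 CPM (0.23 ± 0.63, adjusted p = 0.989). Lrg1 was higher in every lesion with IL-33 than in every one with PBS (as were 2.04% of genes), with 1.41 ± 1.05 in the full set (adjusted p = 0.913). Ngp, at 3.72, 2.45, 5.26 and 0.369 CPM against 0.178, 11.2, 3.29 and 2.19 CPM, had -0.51 ± 1.09 (adjusted p = 0.986).

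Added PBS with IL-33 against IL-33 alone also gave no called member with either tool (0.0141% of genes were called with edgeR, 16.4% had an unadjusted p below 0.05, and no member did with either tool). Lrg1 (-1.25 ± 1.05), Ly6g (-0.67 ± 0.64) and Retnlg (0.50 ± 0.65) had the largest differences, with adjusted p from 0.552 to 0.711, and the rest lay between -0.35 and 0.24. Lrg1 was the 1 member whose groups did not overlap, with all lesions with added PBS lower, as they were for 5.85% of genes.

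With lesion transfer, neither the recipient's nor the fragment's genotype gave a called member over 41 libraries with either tool. Each side of these comparisons pooled a lesion transfer group with deficient lesions under IL-33 or Cre controls, which are not labelled as lesion transfer. In edgeR 11.3% of genes were called for the recipient and 0.00471% for the fragment. For the recipient no member had an unadjusted p below 0.05 with either tool (25.4% of genes did with edgeR), and the median of the 9 was 0.04 (0.39 without the liver-containing libraries, where Cd177 and Ly6g turned to 0.13 and 0.11). Camp (0.54 ± 0.85), Retnlg (-0.52 ± 0.46) and Lrg1 (-0.38 ± 0.73) had the largest differences (adjusted p 0.516 to 0.793). Csf3r was 0.34 ± 0.21 (adjusted p = 0.330), and 0.52 ± 0.22 without liver-containing libraries (unadjusted p = 0.0285, adjusted p = 0.140).

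For the fragment all 9 point differences were negative, with a median of -0.78 against -0.02 for all genes. Without the liver-containing libraries the median was -0.31, Ly6g (0.05) and Lrg1 (0.25) were positive, and Ngp had -1.02, Camp -0.43 and Cd177 -0.33. No member had an unadjusted p below 0.05 with edgeR, where 3.92% of genes did, and 2 had with DESeq2 (Ngp and Retnlg). Ngp in deficient fragments was 3.72, 2.45, 5.26 and 0.369 CPM in deficient recipients and 4.48, 8.75, 2.29 and 6.06 CPM in Cre recipients. In Cre fragments it was 10.98, 35.8, 3.56 and 11.1 CPM in deficient recipients and 3.98, 1.63, 18.2 and 7.88 CPM in Cre recipients. The difference was -1.47 ± 0.78 (adjusted p = 1.00), and the groups overlapped.

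Lrg1 (-1.15 ± 0.74), Camp (-1.03 ± 0.86) and Retnlg (-0.93 ± 0.46) followed in size (adjusted p = 1.00 each). In the interaction of recipient and fragment, 1 member had an unadjusted p below 0.05 in edgeR and 0 in DESeq2 (13.9% of genes did in edgeR): Lrg1, at 3.89 ± 1.51 with an adjusted p of 0.204 (0.414% of genes were called), and 0.62 ± 0.41 without liver-containing libraries. Ngp had -1.83 ± 1.55 and Camp -1.80 ± 1.71 (adjusted p = 0.650 and 0.691), and the others lay between -0.99 (S100a9) and 0.19 (Ly6g). The interaction sets deficient lesions under IL-33 and Cre controls against both lesion transfer groups. It therefore cannot be told apart from a difference between lesions with and without lesion transfer.

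The competent genotypes were also set against each other. Cre controls against floxed controls gave positive point differences for 8 of 9 members (6 without the liver-containing libraries, where Ngp turned to -0.40) and no call with either tool (0.329% of genes were called in edgeR). Lrg1 alone had an unadjusted p below 0.05 (14.5% of genes did), with 2.49 ± 1.09 (adjusted p = 0.285) over all libraries and -0.54 ± 0.29 without the liver-containing libraries. Retnlg was 2.56, 2.37, 9.55 and 3.74 CPM in Cre controls, against 1.69, 1.25, 4.83 and 0.991 CPM in floxed controls (1.06 ± 0.65, adjusted p = 0.458), and S100a8 had 0.81 ± 0.63 (adjusted p = 0.571).

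C57Bl/6J lesions against both controls gave no call with either tool (2.65% of genes were called in edgeR), and no unadjusted p below 0.05 with either tool (19.8% of genes with edgeR). Camp (-1.43 ± 1.13), Lrg1 (1.22 ± 0.86) and Ngp (-0.53 ± 0.96) differed most, with adjusted p from 0.456 to 0.822. Floxed control replicate 3 was the highest of its group for all 9 members, and Ngp was 0.522, 1.42, 20.6 and 1.19 CPM in the 4 floxed controls.

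Other neutrophil genes were read from lists beside the members. Over all genes, 6.24% were called higher and 4.72% lower in deficient against competent lesions, 1.63% and 2.2% against Cre controls, and 5.02% and 6.29% in deficient against Cre recipients. Of 4 measured primary granule genes none was called in any of the 12 comparisons. Of 9 measured genes in the secondary and tertiary granule list, only Ltb4r1 was called, which encodes the leukotriene B4 receptor and not a granule protein. Eosinophils and other leukocytes also express it. Ltb4r1 was lower in deficient lesions against competent ones (-1.47 ± 0.32, edgeR adjusted p = 0.00296), against Cre controls (-1.87 ± 0.36, adjusted p = 0.0032) and in deficient against Cre recipients (-1.65 ± 0.26, adjusted p = 8.02e-05). All 3 calls held without the liver-containing libraries. It averaged 2.53 ± 0.53 CPM in deficient lesions, against 9.27 ± 3.16 CPM in Cre controls (SD, n = 4 each). The 5 measured eosinophil markers summed to 7.36 to 13.7 CPM in deficient lesions and 92.4 to 137 CPM in Cre controls. Of these, Ear2 (-3.15 ± 0.39 against Cre controls) and Rnase2a (-4.71 ± 0.83) were called lower in all 3 comparisons. Siglecf was called lower only for the recipient (-0.86 ± 0.25), and no other marker of this list was called there. The part of eosinophils in the Ltb4r1 difference was not tested.

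Of 17 surface and effector genes, Clec4d, a C-type lectin of myeloid cells, was higher in deficient lesions than in competent ones (1.12 ± 0.35, adjusted p = 0.0358) and in deficient than in Cre recipients (1.11 ± 0.33, adjusted p = 0.024). The list's median was 0.59 for deficient against competent lesions, where that of all genes was -0.01. Without the liver-containing libraries the call for Clec4d against competent lesions was lost (1.196 ± 0.39, adjusted p = 0.0551) and that for the recipient held. Of 8 monocyte markers, Vcan was higher (0.79 ± 0.21, adjusted p = 0.0129) and Chil3, which alternatively activated macrophages also make, was lower (-5.46 ± 1.04, adjusted p = 0.00106) in deficient than in competent lesions. For the recipient Plac8 was higher (1.51 ± 0.42, adjusted p = 0.0168), and Chil3 and Fn1 were lower. The 8 summed to 4902 to 6870 CPM in deficient lesions, against 10772 to 13153 CPM in C57Bl/6J lesions, 10150 to 16160 CPM in Cre controls and 4232 to 9612 CPM in floxed controls, which overlap the deficient lesions, and their part was not tested. The chemokine receptor Cxcr2 averaged 6.28 ± 1.99 CPM in deficient lesions and 7.39 ± 3.92 CPM in Cre controls and was called in no comparison.

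Of 10 measured genes for neutrophil recruitment, 2 were higher in deficient than in competent lesions, where 6.24% of all genes were: Csf3, which encodes G-CSF (2.55 ± 0.81, adjusted p = 0.0383), and the cytokine gene Il1b (1.22 ± 0.40, adjusted p = 0.0456). Csf3 was low and uneven, at 0.534 to 12.96 CPM in deficient lesions and 0.519 to 1.68 CPM in Cre controls. Without the liver-containing libraries Il1b held (1.56 ± 0.45, adjusted p = 0.0298) and Csf3 did not (2.77 ± 0.91, adjusted p = 0.0562). In deficient against Cre recipients 3 were higher, where 5.02% of all genes were, and all 3 held without those libraries: Sele, E-selectin (1.72 ± 0.38, adjusted p = 0.00288), Selp, P-selectin (0.78 ± 0.21, adjusted p = 0.0133), and Il1b (1.11 ± 0.37, adjusted p = 0.0477). Of 6 endothelial markers, Kdr (0.62 ± 0.13), Cdh5 (0.45 ± 0.13) and Tek (0.48 ± 0.15) were also higher there and Vwf was lower (-0.66 ± 0.16, adjusted p of the 4 from 0.00182 to 0.0341). The 6 summed to 587 to 744 CPM in deficient lesions and 454 to 848 CPM in Cre fragments in deficient recipients, against 559 to 821 CPM in deficient fragments placed in Cre mice and 637 to 779 CPM in Cre controls, and their part in the selectin differences was not tested. Il1b averaged 46.0 ± 29.1 CPM in Cre fragments in deficient recipients and 15.3 ± 7.06 CPM in Cre controls (SD, n = 4 each).

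Of 7 regulators of granulocyte development, those called were lower, as were 4.72% of all genes against competent lesions, 2.2% against Cre controls and 6.29% for the recipient. Csf2rb, the common beta chain of the receptors for GM-CSF, IL-3 and IL-5, was lower in deficient than in competent lesions (-0.78 ± 0.24, adjusted p = 0.0336), than in Cre controls (-1.02 ± 0.28, adjusted p = 0.0386) and in deficient than in Cre recipients (-0.80 ± 0.20, adjusted p = 0.00817). Gfi1, a repressor needed for neutrophil development, was lower in deficient than in competent lesions (-1.60 ± 0.50, adjusted p = 0.0351). Cebpe, the C/EBP factor of secondary granule formation, was lower in deficient than in Cre recipients (-1.68 ± 0.51, adjusted p = 0.0297), while its known targets Ngp and Camp had 0.04 ± 0.77 and 0.54 ± 0.85 there. Without the liver-containing libraries only the recipient difference of Csf2rb stayed called (-0.81 ± 0.20, adjusted p = 0.00763), and the other 4 calls of this list had adjusted p from 0.0552 to 0.0952. These genes also act in eosinophils, whose markers Ear2 and Rnase2a were lower too, and their part was not tested. In the remaining 9 comparisons none of the genes of these 5 lists was called.

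The genes whose levels followed the mean of the 8 members other than Lrg1 most closely over 41 libraries (mean of at least 1 CPM) were Prtn3 (r = 0.77), Mpo (r = 0.73), Mmp8 (r = 0.72), Stfa2l1, Abca13, Nfe2, Dgat1, Ifitm6, Cxcr2 and Asprv1 (r = 0.64). Mpo and Prtn3 encode primary granule proteins, and Mmp8 encodes neutrophil collagenase. After centring within groups Mmp8 (r = 0.73), Mpo (r = 0.72) and Prtn3 (r = 0.71) were again among the first 10, with Fas, Olfr1033, Cpxm1, Nfe2, Tcn2, Ighv1-69 and Mmp27. These are ranks among many genes and carry no test.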

How the data were processed

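Whole mouse endometriosis lesions were profiled by bulk RNA-seq in 41 libraries of 11 groups. Groups follow the sample titles, and outside lesion transfer the recipient is taken to have the labelled genotype. The authors deposited raw counts per gene symbol. Per the submitters' processing notes Trimmomatic, STAR, HTSeq, edgeR and limma were used with GRCm38, and their versions, order and strand setting are not given in the sources used here. Without a stated strand setting, reads of a gene and of an antisense partner could be counted together, and no annotated gene overlaps a member. No gene has a total under 411 counts over the 41 libraries, so low totals were filtered before deposit, by a rule that no source here gives.

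From these counts CPM were computed with TMM scaling (factors 0.707 to 1.24) on totals of 28884926 to 70526624 counts, and 1 model over all 11 groups was fitted to 21249 genes with edgeR 4.0.16 (quasi-likelihood test, R 4.3.3, prior count 2, Benjamini-Hochberg adjusted p below 0.05). No gene was removed by edgeR's own filter. DESeq2 1.42.0, RLE scaling, a filter of 1 CPM in 4 libraries, fits on the compared groups, replicate blocks, leaving out each replicate and leaving out the 4 libraries with liver transcripts (at least 1% of counts) were alternatives. Correlations of log2 CPM used 100000 permutations (scipy 1.17.1, numpy 2.4.6, Python 3.11.15, pandas 2.3.3), two-sided. Libraries of a group differed by 21.2 to 1357 times the counting noise (chi-square per degree of freedom over 58 pairs), so none was counted as a repeat. The floor for 0 counts is 3 counts per library and covers counting error only. The fit was tested on simulated data with the same spread for every gene and changes only in genes of higher counts. That test does not cover the wider spread and low counts of some members. Each comparison names the members called and the 3 with the largest fold changes. Genes outside the members were named where they were called within a list or by rank of correlation with the members, and the 4 primary granule genes and the check of list genes without liver-containing libraries were chosen after values were seen. The members, lists and comparisons were chosen with earlier results of these data known. Genes of the lists without a row in the table were not analysed here. A called gene of the surface and effector list is not reported here.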

Additional observations from a re-analysis of the deposited data

Results flagged for a closer look

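Of 90 sets of 4 libraries tested, 11 had a library whose gap to its nearest neighbour took most of the set's range (Dixon's test at 95%). Chance gives about 1 in 20 for normally distributed values in independent sets. The member levels tested were uneven CPM and varied together, so the number of flags cannot be set against that rate. Floxed control replicate 3 was far above the other floxed controls for S100a9 (27.3 CPM), Ngp (20.6 CPM), Camp (5.25 CPM) and Cd177 (5.48 CPM). Cre control replicate 3, a liver-containing library, was far above the others for Lrg1 (774 CPM) and Cd177 (6.54 CPM), and C57Bl/6J replicate 4, also liver-containing, for Lrg1 (758 CPM).

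Among deficient lesions under IL-33, replicate 2, the liver-containing one, was low in Csf3r (31.4 CPM), replicate 3 was high in Retnlg (3.07 CPM), and replicate 4 was far below the others in precursor minus mature genes (-3.54 on the log2 scale). Replicate 1 of deficient fragments in Cre recipients was low in Ly6g (0.191 CPM).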

How the results depend on the processing

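Over all alternatives, 209 of 213 counts of called members stayed at 0. The 4 others were 1 (Lrg1) without the liver-containing libraries in deficient against competent lesions, in deficient against Cre controls and in deficient against Cre recipients, and 1 in C57Bl/6J against both controls without Cre control replicate 3 (range 0 to 1 over left-out replicates). Of 1692 fold changes of the 8 members other than Lrg1, over 12 comparisons and all alternatives, 1586 kept their direction, and 106 turned: 82 over left-out replicates, 17 without the liver-containing libraries, 6 with the replicate block and 1 with the filter of 1 CPM in 4 libraries. None of these 8 members was called under any of them. All 74 group values of precursor minus mature genes moved by less than the group's own SD. Leaving out 1 library cannot move a group's mean by more than that SD, so those values could not have counted as moved. Among the 3 largest of each comparison, Ngp turned to 0.65 for IL-33 against PBS without PBS replicate 2 (left-out range -0.95 to 0.65). In C57Bl/6J against both controls it turned to 0.72 without floxed replicate 3 (range -0.94 to 0.72) and to 0.023 with the replicate block. The cause was not tested.

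Lrg1 turned on the liver-containing libraries. Without them it was 1.10 (deficient against competent), 1.26 (against Cre controls), 1.02 (recipient), 0.25 (fragment), -0.54 (Cre against floxed controls) and -0.31 (C57Bl/6J against both). Leaving out single replicates gave -0.91 to 0.32 against competent lesions (0.32 without Cre replicate 3 and without C57Bl/6J replicate 4), -1.91 to 1.4998 against Cre controls, -0.57 to 1.14 for the recipient, -1.34 to 0.36 for the fragment, -0.54 to 2.87 for Cre against floxed controls, -1.83 to 2.73 for C57Bl/6J against both and -2.95 to 4.45 for 120000 ILC2s in C57Bl/6J mice. The turned values came without Cre replicate 3, C57Bl/6J replicate 4 or, in the last, C57Bl/6J with ILC2s replicate 3, all liver-containing. In the 37 libraries, alternatives chosen after seeing the data left the recipient difference called in every fit (0.91 to 1.12 over left-out replicates). The difference from competent lesions was lost without deficient replicate 4 (1.03, edgeR adjusted p = 0.0948), and that from Cre controls without Cre replicates 1, 2 or 4, without deficient replicates 3 or 4 (1.13 to 1.35, adjusted p up to 0.162) and with the replicate block (1.21, adjusted p = 0.0664). DESeq2 called IL-33 against PBS (adjusted p = 0.0359) and added PBS against IL-33 alone (adjusted p = 0.0183), where edgeR did not.

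Deviations of same-numbered libraries from their group means correlated at -0.69 to 0.86, with 72 of 191 over 0.1. Differently numbered libraries were not compared, so these values cannot decide whether replicate numbers pair the samples. With the replicate block no member was called, the recipient difference of Lrg1 over 41 libraries was 0.12, and the interaction's calls over all genes fell to 5, against 88. Fitting the compared groups alone gave 132 calls over all genes in deficient against Cre controls, where the joint fit gave 813, and 31 in C57Bl/6J against both controls, where it gave 563. DESeq2 called 3007 and 1480 genes in the first 2 comparisons, where edgeR called 2329 and 813. Counts under 10 in 11 libraries for Ly6g and in 10 for Camp limit the precision of both.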
